A study of Mus musculus with 3 samples.

Results

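Glycogen is the branched glucose polymer in which animal cells store sugar. Glucose 1-phosphate is joined to UTP by UDP-glucose pyrophosphorylase, the resulting UDP-glucose is added to the growing chain by glycogen synthase, and branches are put in by the branching enzyme. Glycogen phosphorylase removes glucose units again as glucose 1-phosphate, and mammals have a liver, a brain and a muscle form of it, named after the tissues in which they prevail. The 6 genes described here cover these steps: Ugp2 (Entrez gene 216558) for the pyrophosphorylase, Gys1 (14936) for the synthase form found outside the liver, Gbe1 (74185) for the branching enzyme, and Pygl (110095), Pygb (110078) and Pygm (19309) for the liver, brain and muscle phosphorylases. They are 6 of the 17997 genes listed in any of the libraries, were found by their Entrez numbers, and were all listed in each library. They had been chosen by their annotated role with their levels in these same libraries already known, so every value below is a description and none is a test.

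The study sequenced total RNA from 46C cells, a mouse embryonic stem cell line of strain 129, cultured on gelatin in serum and LIF. Of the 3 libraries, 1 came from cells given an empty vector (PB) and collected at passage 2, and the others came from cells given lef1 (PB-Lef1), collected at passage 2 and at passage 5. Following the titles, PB, PB-Lef1 P2 and PB-Lef1 P5 stand for these libraries, with n = 1 each, so there is no replicate error and no p-value is given. Lef1 is a DNA-binding partner of beta-catenin, and the labels state neither the promoter that drives it nor whether clones or pools of cells were taken. Levels are in FPKM, a read count corrected for transcript length and library size, followed by 95% counting intervals, which cover counting error alone.

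The libraries held 9170554 to 9380813 expected counts, so that 3 reads correspond to 0.320 to 0.327 FPKM for a 1 kb transcript. Lef1 was at 1.49 FPKM in PB, 135 in PB-Lef1 P2 and 214 in PB-Lef1 P5, so it followed the labels. The 7 pluripotency markers were between 48.2 and 1135 FPKM throughout. The 17 markers of primitive and definitive endoderm summed to 185 FPKM in PB, 1899.5 FPKM in PB-Lef1 P2 and 503 FPKM in PB-Lef1 P5. In bulk RNA, fewer cells of a type and less RNA per cell cannot be told apart.

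At passage 2 all 6 genes were listed at a higher level with Lef1 than with the empty vector, by 1.28-fold to 8.88-fold. The lowest of these folds, that of Gbe1, had a counting interval of 0.864 to 1.91, which includes 1. PB-Lef1 P2 was the highest library for 49.7% of 10713 genes above a minimum level given below. The share of all genes higher in PB-Lef1 P2 than in PB was not counted. Pygl stood far from the other members. At passage 5 it was back near the level of PB, Pygb and Pygm were below that level, and Gys1 and Ugp2 were still above it. The plot of levels by library shows these orders.

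**Figure D1:**
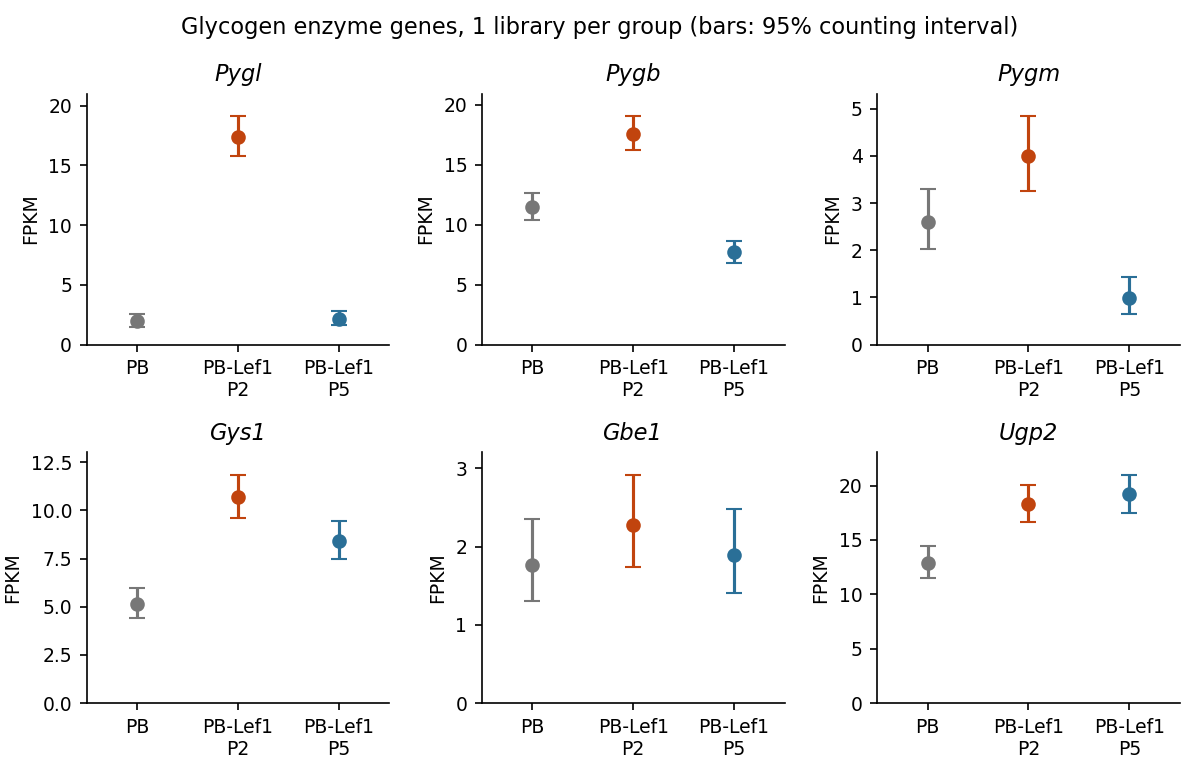
FPKM (vertical axes, each from 0) of the 6 glycogen enzyme genes in the 3 libraries, 1 point per library, with bars for the 95% counting interval. Pygl is at 1.96, 17.4 and 2.19 FPKM in PB, PB-Lef1 P2 and PB-Lef1 P5, and of the 6 genes Ugp2 alone has its highest value in PB-Lef1 P5.

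Pygl, the liver form of the enzyme that opens glycogen breakdown, was at 1.96 FPKM (1.45 to 2.58) in PB, 17.4 FPKM (15.8 to 19.1) in PB-Lef1 P2 and 2.19 FPKM (1.66 to 2.84) in PB-Lef1 P5. The matching expected counts were 50, 441 and 57 reads, all whole numbers. PB-Lef1 P2 was thus high, and the intervals of the other libraries overlapped each other and lay far under it. The level in PB-Lef1 P2 was 8.88 times that in PB (counting interval of the fold 6.62 to 12.2), whereas PB-Lef1 P5 was at 1.12 times PB (0.751 to 1.67). Between the Lef1 libraries Pygl was 7.95-fold lower at passage 5 (6.02 to 10.7).

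Pygb, the brain form and the best expressed phosphorylase in 3 of 3 libraries, was at 11.5 FPKM (10.4 to 12.6), 17.6 FPKM (16.2 to 19.0) and 7.69 FPKM (6.81 to 8.65) in the same order. None of these intervals overlapped. PB-Lef1 P2 was 1.53-fold above PB (1.35 to 1.74), PB-Lef1 P5 was at 0.670 times PB (0.573 to 0.783), and PB-Lef1 P5 was 2.29-fold below PB-Lef1 P2 (1.98 to 2.65).

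Pygm, the muscle form, was the lowest phosphorylase except in PB. It was at 2.61 FPKM (2.03 to 3.31) in PB, 3.99 FPKM (3.26 to 4.84) in PB-Lef1 P2 and 0.98 FPKM (0.640 to 1.44) in PB-Lef1 P5, from 68, 103 and 26 reads. The intervals of the passage 2 libraries overlapped slightly, and PB-Lef1 P5 lay under both. Its fold was 1.53 at passage 2 (1.11 to 2.11), and PB-Lef1 P5 was 2.66-fold below PB (1.67 to 4.36) and 4.07-fold below PB-Lef1 P2 (2.63 to 6.52).

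Taking the phosphorylase genes as a sum, the level was 16.04 FPKM in PB, 39.0 FPKM in PB-Lef1 P2 and 10.9 FPKM in PB-Lef1 P5. The sum was 2.43-fold higher in PB-Lef1 P2 than in PB, and 3.59-fold lower in PB-Lef1 P5 than in PB-Lef1 P2. The mix differed as well. Pygl made up 12.2% of the summed FPKM in PB, 44.6% in PB-Lef1 P2 and 20.2% in PB-Lef1 P5, while the share of Pygb was 71.5%, 45.1% and 70.8%. Pygm held 16.3%, 10.2% and 9.02%. The liver and brain forms were at nearly the same level in PB-Lef1 P2, with a Pygl to Pygb ratio of 0.989, against 0.171 in PB and 0.285 in PB-Lef1 P5.

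**Figure D2:**
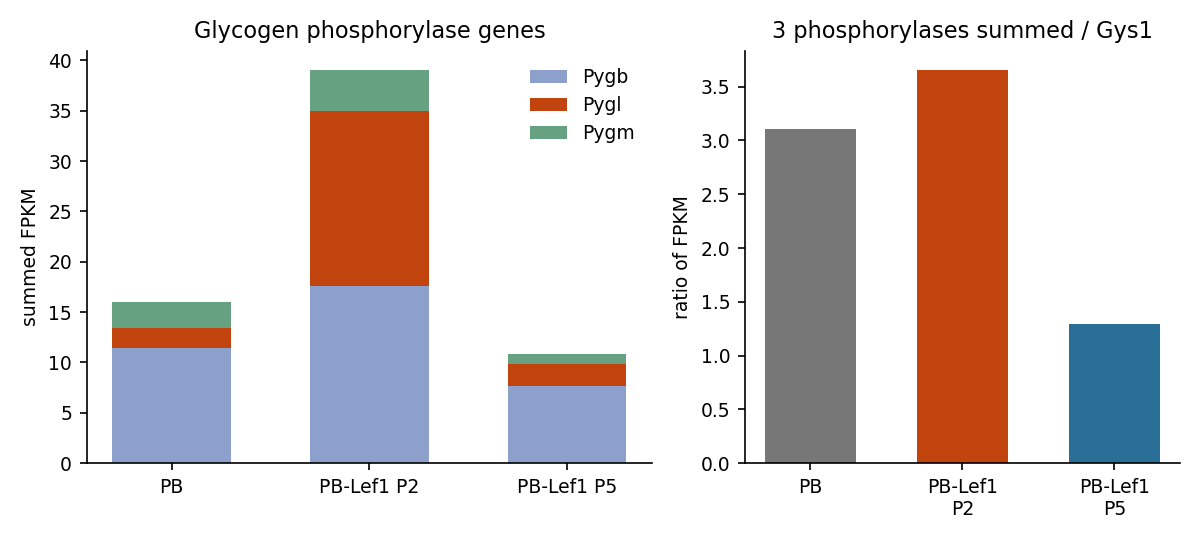
Left, FPKM of Pygb, Pygl and Pygm stacked for each of the 3 libraries, reaching 16.04, 39.0 and 10.9 FPKM. Right, that sum divided by the FPKM of Gys1, which was 3.10 in PB, 3.65 in PB-Lef1 P2 and 1.29 in PB-Lef1 P5. There is 1 library per bar and no error bar.

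On the synthesis side, Gys1, the enzyme that lengthens the glycogen chain, was at 5.17 FPKM (4.43 to 6.0) in PB, 10.7 FPKM (9.60 to 11.9) in PB-Lef1 P2 and 8.42 FPKM (7.47 to 9.45) in PB-Lef1 P5. Both Lef1 libraries were above PB with no overlap of intervals, by 2.07-fold (1.72 to 2.49) and 1.63-fold (1.34 to 1.98). Those of PB-Lef1 P2 and PB-Lef1 P5 did not overlap either, and their fold was 1.27 (1.08 to 1.49). Set against Gys1, the summed phosphorylase level was 3.10 times the synthase level in PB, 3.65 times in PB-Lef1 P2 and 1.29 times in PB-Lef1 P5. No counting interval was computed for these ratios. Gys1 rests on 173 reads in PB, so 3.10 against 3.65 is not read as a difference.

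Ugp2, which makes the UDP-glucose used by the synthase, was at 12.9 FPKM (11.5 to 14.4), 18.3 FPKM (16.6 to 20.1) and 19.2 FPKM (17.5 to 21.0) in PB, PB-Lef1 P2 and PB-Lef1 P5. The Lef1 libraries overlapped each other and lay above the empty vector by 1.42-fold (1.22 to 1.64) and 1.49-fold (1.29 to 1.72). Ugp2 has a pair of listed transcripts, and the length used for it was 2714 bases, 2713 bases and 2732 bases, so length hardly enters its fold.

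Gbe1, which adds the branches, was the lowest member apart from Pygm in PB-Lef1 P5. It was at 1.77 FPKM (1.31 to 2.35), 2.27 FPKM (1.74 to 2.92) and 1.89 FPKM (1.41 to 2.48), from 48, 61 and 52 reads. All of these intervals overlapped, so no difference in Gbe1 was detectable at this depth. The Gys1 level was 2.92, 4.70 and 4.46 times that of Gbe1.

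By level, the order within PB was Ugp2, Pygb, Gys1, Pygm, Pygl and Gbe1, and the neighbours Ugp2 and Pygb, and also Pygm, Pygl and Gbe1, had overlapping intervals. In PB-Lef1 P2 Ugp2, Pygb and Pygl formed the top group with overlapping intervals, followed by Gys1, Pygm and Gbe1. In PB-Lef1 P5 the order was Ugp2, Gys1, Pygb, Pygl, Gbe1 and Pygm, with overlap between Gys1 and Pygb, between Pygl and Gbe1 and, narrowly, between Gbe1 and Pygm.

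Counts over all genes give the frame for these values. Calls were made by size alone: log2 of the ratio of FPKM + 1 had to be at least 1 in size, and the higher library had to reach 3 FPKM and 20 reads. In PB-Lef1 P2 against PB, 5 of the 6 members reached that level, 1 was called higher (Pygl) and 0 lower, where 6.49% of 10651 genes were called higher and 1.82% lower. The log2 ratio of Pygl was 2.64, the 41st from the top. Gys1 was next at 0.92, just under the threshold, and Pygb was at 0.58, Ugp2 at 0.47, Pygm at 0.47 and Gbe1 at 0.24. The median of the 6 was 0.52, beside 0.09 for all genes that reached the level. That of the 5 members that reached it was 0.58, but Pygl and Pygm did so only through PB-Lef1 P2. The value for the 5 is therefore not set against that of all genes.

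For PB-Lef1 P5 against PB, 3 members reached the level (Pygb, Gys1 and Ugp2), and 0 of 6 were called in either direction, where 1.4% of 10121 genes were called higher and 1.28% lower. The log2 ratios ran from -0.87 for Pygm through -0.52 for Pygb, 0.06 for Gbe1 and 0.11 for Pygl to 0.54 for Ugp2 and 0.61 for Gys1. The median of the 6 was 0.08 and that of the 3 that reached the level 0.54, beside -0.02 for all genes that did, so the value turns on which members enter it. The introduced gene and the passage number differ together here and cannot be told apart, since an empty-vector culture of passage 5 was not analysed here. This comparison and the previous one use the same empty-vector library.

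Between PB-Lef1 P5 and PB-Lef1 P2, 5 members reached the level and 3 were called lower, which were the 3 phosphorylase genes, with 0 higher. Of 10593 genes, 6.86% were called lower and 1.88% higher. The passage number and the Lef1 level, 135 FPKM in PB-Lef1 P2 and 214 in PB-Lef1 P5, differ together here and cannot be told apart. Pygl had a log2 ratio of -2.53, the 6th lowest of all genes tested, Pygm was at -1.33 and Pygb at -1.10. Gys1 was at -0.31, Gbe1 at -0.18 and Ugp2 at 0.07. The median was -0.70 over the 6 members, beside -0.14 for all genes that reached the level. Over the 5 members that reached it the median was -1.10, but Pygl and Pygm did so only through PB-Lef1 P2. The value for the 5 is therefore not set against that of all genes. PB-Lef1 P2 was the highest library for 49.7% of the 10713 genes that reached 3 FPKM and 20 reads in their highest library. It was also the highest for 5 of the 6 members, but 1 of these, Gbe1, was under that level, and its intervals overlapped in all libraries.

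**Figure D3:**
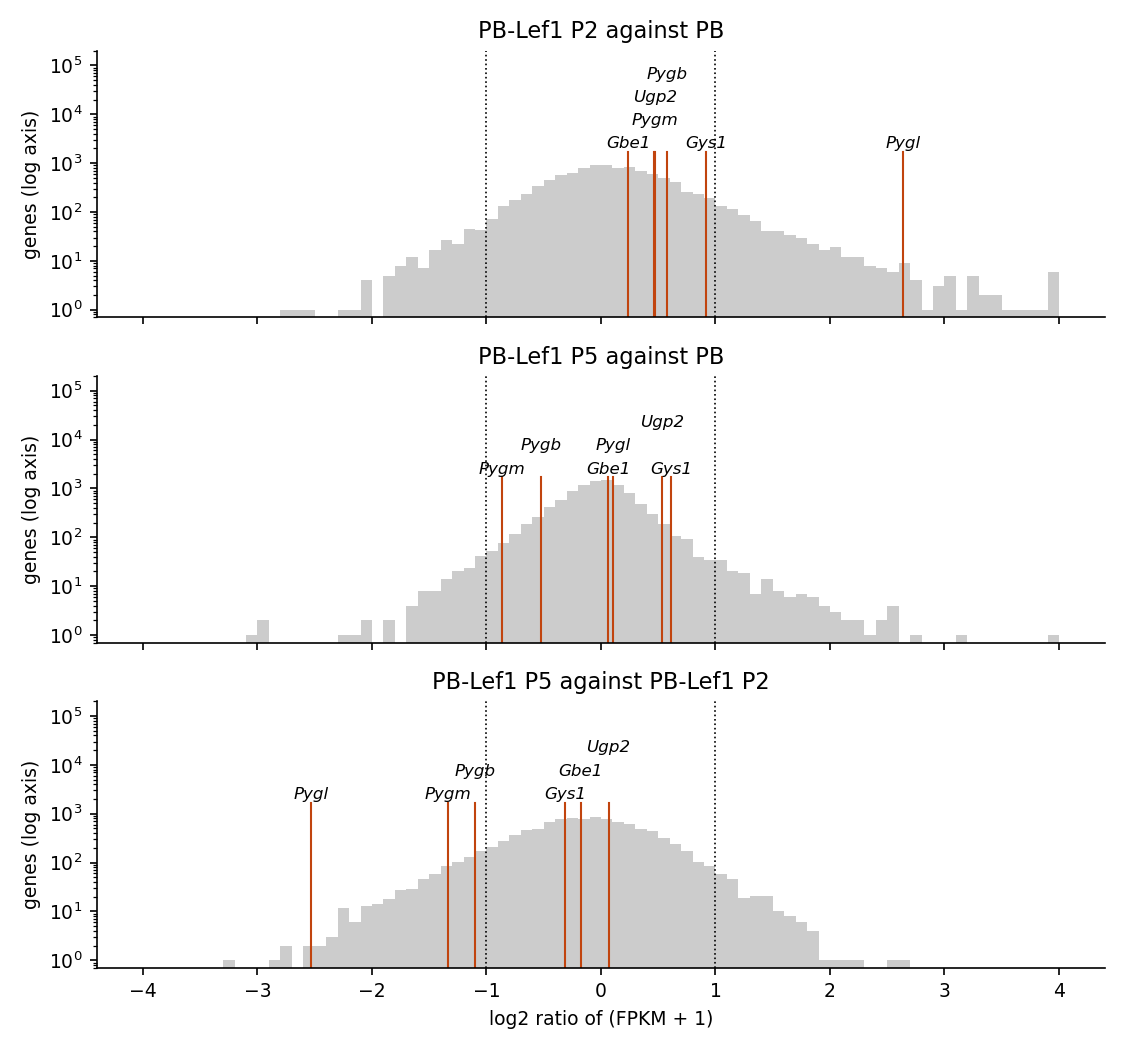
Histograms of the log2 ratio of FPKM + 1 over all genes that reached the minimum level (counts on a log axis, ratios beyond 4 in size drawn in the end bins), for the 3 comparisons. Orange lines mark the 6 glycogen enzyme genes whether or not they reached that level, and dotted lines mark the thresholds at -1 and 1. Pygl lies at 2.64, 0.11 and -2.53 from top to bottom.

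The scaling between libraries bears on these values. With median-of-ratios or TMM (trimmed mean of M values) scaling the median of all genes shifted by -0.15 in PB-Lef1 P2 against PB, and by 0.18 and 0.17 in PB-Lef1 P5 against PB-Lef1 P2. The share of higher calls among all calls went from 78.1% to 62.6% and 62.5% in the former comparison, and from 21.5% to 44.8% and 43.4% in the latter. Relative to the median of all genes as deposited, Pygl was at 2.55 and Gys1 at 0.83 in the former, and Pygl was at -2.39, Pygm at -1.19 and Pygb at -0.96 in the latter. Pygb was no longer called under these scalings, with log2 ratios of -0.91 and -0.93. All 18 member ratios kept their sign under median-of-ratios and TMM scaling. A change of pseudocount cannot alter a sign. Nor could CPM (counts scaled by library size alone) or 1 length per gene for members of unchanging length, which were all but Ugp2.

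Reads of paralogs and of overlapping genes can be misassigned. The expected counts of all 6 members were whole numbers in every library. In the GRCm38 annotation, used here only for neighbours, Gys1 overlaps Ruvbl2 and Ugp2 overlaps Vps54, and no source used here says if counting took strand into account. Ruvbl2 was at 202 FPKM, 151 FPKM and 187 FPKM in PB, PB-Lef1 P2 and PB-Lef1 P5, the reverse order to Gys1. Vps54 was at 18.3 FPKM, 27.9 FPKM and 21.3 FPKM, highest where Ugp2 was not. Their part in the levels of Gys1 and Ugp2 was not tested.

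The promoters of the phosphorylase genes are shown because these 3 genes were lower together in PB-Lef1 P5 than in PB-Lef1 P2. The sequences are from RefSeq on GRCm38.p6, a build other than the mm8 named in the submitters' processing notes, and run from 250 bases before the start site to 50 bases after its first base. The Pygl window is chr12:70227634-70227933 on the minus strand, the Pygb window is chr2:150786546-150786845 on the plus strand and the Pygm window is chr19:6384158-6384457 on the plus strand. Capitals mark the hypoxia response core, ACGTG or GCGTG, on either strand, so that the letters read CACGT or CACGC where the match is on the other strand.
Pygl: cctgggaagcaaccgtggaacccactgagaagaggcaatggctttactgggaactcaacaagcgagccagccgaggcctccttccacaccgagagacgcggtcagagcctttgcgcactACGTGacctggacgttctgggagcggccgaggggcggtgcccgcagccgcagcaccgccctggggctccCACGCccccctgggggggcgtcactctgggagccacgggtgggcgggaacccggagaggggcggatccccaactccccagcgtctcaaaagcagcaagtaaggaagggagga
Pygb: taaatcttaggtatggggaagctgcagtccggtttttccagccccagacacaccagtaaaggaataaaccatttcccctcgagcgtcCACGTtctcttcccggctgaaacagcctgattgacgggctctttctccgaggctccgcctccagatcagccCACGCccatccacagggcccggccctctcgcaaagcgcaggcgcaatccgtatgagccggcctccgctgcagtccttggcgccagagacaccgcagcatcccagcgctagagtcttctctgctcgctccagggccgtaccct
Pygm: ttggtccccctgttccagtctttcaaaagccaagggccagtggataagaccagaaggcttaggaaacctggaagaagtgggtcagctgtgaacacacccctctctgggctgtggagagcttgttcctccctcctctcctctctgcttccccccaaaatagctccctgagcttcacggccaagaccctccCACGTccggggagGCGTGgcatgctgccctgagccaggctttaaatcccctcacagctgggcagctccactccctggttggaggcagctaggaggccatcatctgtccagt

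Each of these windows held 2 such matches, in Pygl starting at -131 and -62, in Pygb at -163 and -92 and in Pygm at -61 and -48, counted from 0 at the start site. The Gys1 and Gbe1 windows held 0, and of the 2 Ugp2 windows 1 held 6 and the other held 0. At least 1 match was present in 43.8% of the 32851 promoter windows of 300 bases, so the presence of the motif is common. The share with 2 or more matches was not counted, nor was the share among windows of like G and C content. The TCF/LEF words CTTTGAA or CTTTGAT or CTTTGTA or CTTTGTT on both strands were in 0 of the 7 windows of the 6 genes and in 16.9% of all. The GATA words AGATAA or AGATAG or TGATAA or TGATAG were in 0 of the 7 and in 29.8% of all, and the E-box CACGTG, which contains the hypoxia core, was in 0 of the 7 and in 7.15% of all. The bases G and C made up 67.0% of the Pygl window, 60.7% of Pygb and 58.7% of Pygm, against a median of 52.7%, and CpG pairs numbered 22, 21 and 4 against a median of 7.

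A further 55 genes of the pathway, in 6 lists, were read beside the 6 enzymes. In PB-Lef1 P2 against PB, 37 of the 55 reached the level and could be called, and 6 were called higher and 0 lower, where 6.49% of all genes tested were called higher and 1.82% lower. The median log2 ratio of the 37 was 0.52. In PB-Lef1 P5 against PB, 0 were called of 36 that could be, with a median of 0.11. In PB-Lef1 P5 against PB-Lef1 P2, 1 was called higher and 5 lower of 37 that could be, where 1.88% of all genes tested were called higher and 6.86% lower, and the median was -0.49. With median-of-ratios or TMM scaling Prkab2, Slc2a3 and Gpi1 were no longer called higher at passage 2, and Gyg, Ppp1r3b, Prkaa2 and G6pc3 were no longer called lower at passage 5 against PB-Lef1 P2. The genes Gys2 (the liver synthase), Ppp1r3a (the muscle targeting subunit), Slc2a2 (the liver glucose transporter) and G6pc (the liver glucose 6-phosphatase) were not listed in any library.

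Among the 8 other enzymes of synthesis and breakdown, 5 reached the level. Of these, 0 were called at passage 2 with Lef1, and Gyg alone was called lower at passage 5 against PB-Lef1 P2. Gyg, the glycogenin that primes a new glycogen molecule, was at 5.16 FPKM, 11.2 FPKM and 4.56 FPKM in PB, PB-Lef1 P2 and PB-Lef1 P5, with a log2 ratio of 0.99 at passage 2, just under the threshold. The best expressed gene of the list in both Lef1 libraries was Gaa, the lysosomal enzyme that degrades glycogen, at 25.9 FPKM, 44.3 FPKM and 25.6 FPKM. Pgm1, a phosphoglucomutase that links glucose 1-phosphate and glucose 6-phosphate, was at 27.5 FPKM, 39.6 FPKM and 20.6 FPKM and led the list in PB.

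Phosphorylase kinase, which activates the phosphorylases, has its subunits encoded by 5 genes on the list, and 0 of 5 were called in any comparison. Their median log2 ratio was 0.50 in PB-Lef1 P2 and 0.20 in PB-Lef1 P5, each against PB. Phkg2, a catalytic subunit and the best expressed of them, was at 11.6 FPKM, 18.3 FPKM and 12.5 FPKM. Phka2, a regulatory subunit, had the widest difference, at 5.63 FPKM, 12.1 FPKM and 7.19 FPKM.

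Protein phosphatase 1 acts against that kinase when targeting subunits bring it to glycogen. Of the 12 genes of this list, 4 reached the level in each comparison with PB-Lef1 P2 and 3 in PB-Lef1 P5 against PB. The others could not be called, and 1 gene was called. Ppp1r3b, a targeting subunit known from liver, was at 1.82 FPKM (1.42 to 2.30) in PB, 5.88 FPKM (5.14 to 6.70) in PB-Lef1 P2 and 2.12 FPKM (1.69 to 2.63) in PB-Lef1 P5. It was called higher in PB-Lef1 P2 than in PB and lower in PB-Lef1 P5 than in PB-Lef1 P2. The latter call was lost with median-of-ratios or TMM scaling, under which Pygl was still called. The catalytic subunit gene Ppp1ca, the highest of the list, was at 206 FPKM, 169 FPKM and 221 FPKM.

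The next list held 9 genes for glycogen synthase kinases and AMPK, an energy sensor whose beta subunits bind glycogen. Of these, 8 reached the level. Prkab2 was called higher in PB-Lef1 P2 than in PB and Prkaa2 lower in PB-Lef1 P5 than in PB-Lef1 P2. The beta subunit gene Prkab2 was at 3.0 FPKM, 7.75 FPKM and 4.18 FPKM. The catalytic subunit gene Prkaa2 was at 6.85 FPKM, 10.2 FPKM and 4.39 FPKM. Gsk3a, which phosphorylates glycogen synthase and led the list by level, was at 56.5 FPKM, 52.9 FPKM and 46.7 FPKM.

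In the list for glucose entry and glucose 6-phosphate, 8 of 13 genes reached the level. Of these, 3 were called higher in PB-Lef1 P2 than in PB, where 6.49% of all genes tested were. They were the glucose transporter gene Slc2a3 (296 and 641 FPKM), the glucose 6-phosphate isomerase gene Gpi1 (159 and 324 FPKM, with counts that were not whole) and Slc37a4 (2.10 and 6.72 FPKM), whose product carries glucose 6-phosphate into the endoplasmic reticulum. Hk1, a hexokinase that traps glucose in the cell, was at 23.3 FPKM, 36.6 FPKM and 15.5 FPKM and was called lower in PB-Lef1 P5 than in PB-Lef1 P2. So was G6pc3, a glucose 6-phosphatase found in many tissues, at 7.88 FPKM, 15.3 FPKM and 6.63 FPKM. G6pdx, which sends glucose 6-phosphate into the pentose phosphate pathway, went the other way, at 39.2 FPKM, 23.2 FPKM and 49.7 FPKM, and was called higher in PB-Lef1 P5 than in PB-Lef1 P2.

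For other users of UDP-glucose, 7 of 8 genes reached the level and 1 was called. That was Alg5, which puts glucose on the lipid carrier of N-glycans. It was at 5.29 FPKM, 13.8 FPKM and 8.35 FPKM and was called higher in PB-Lef1 P2 than in PB. Galk1, the galactokinase gene and the highest of the list, was at 84.8 FPKM, 129 FPKM and 97.6 FPKM.

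**Figure D4:**
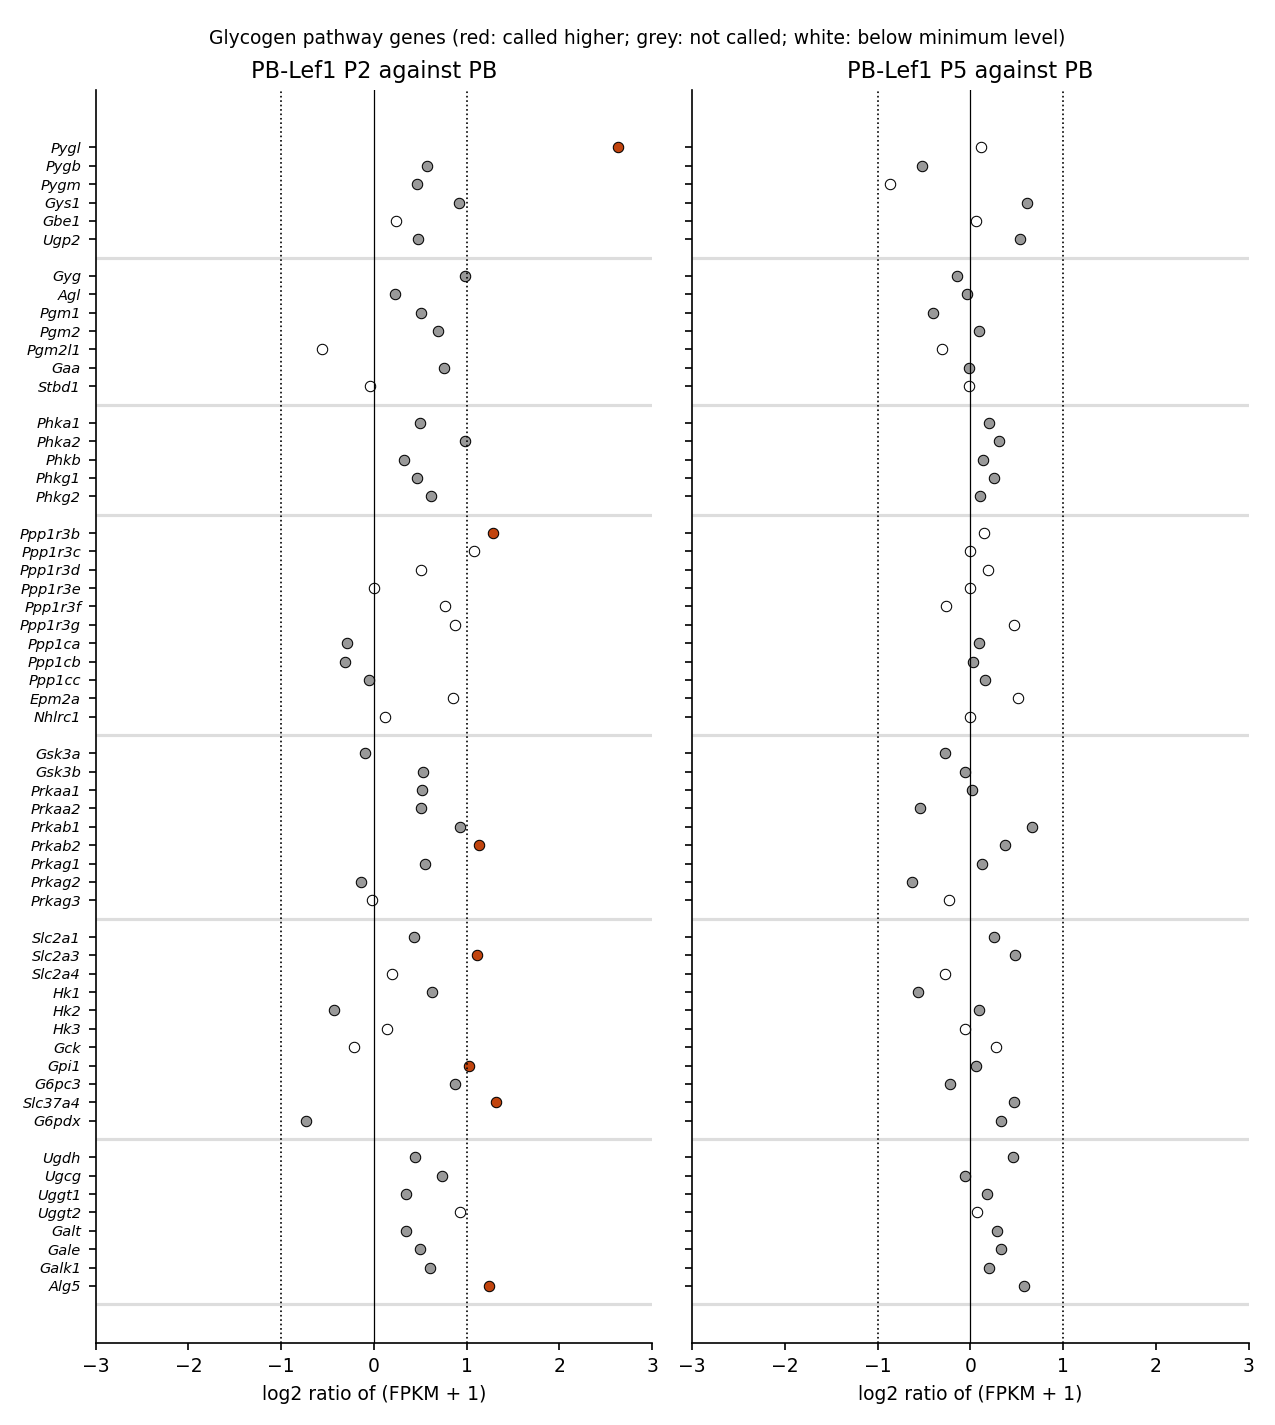
Log2 ratio of FPKM + 1 for the 6 glycogen enzyme genes (top block) and the 51 further pathway genes that were listed, grouped by list, in PB-Lef1 P2 (left) and PB-Lef1 P5 (right), each against PB. Red points were called higher, grey points were not called and white points lay under the minimum level, and dotted lines mark -1 and 1. Pygl at 2.64 is the farthest point on the left, and on the right 0 points are red.

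Cell type markers were read beside these values. Of the 17 endoderm markers, 15 reached the level in PB-Lef1 P2 against PB and 14 were called higher, where 6.49% of all genes tested were. In PB-Lef1 P5 against PB, 12 reached it and 9 were called higher, where 1.4% of all were. In PB-Lef1 P5 against PB-Lef1 P2, 15 reached it and 13 were called lower, where 6.86% of all were. The endocytic receptor gene Cubn, a visceral endoderm marker, was at 2.68 FPKM, 33.0 FPKM and 2.53 FPKM, so like Pygl it was near its empty-vector level in PB-Lef1 P5. Others of the list differed from Cubn in PB-Lef1 P5. Amn, at 2.33 FPKM, 16.45 FPKM and 5.62 FPKM, was above PB there. Hnf4a, at 2.13 FPKM, 4.55 FPKM and 0.59 FPKM, was below it. The endoderm factor gene Gata6 was at 2.24 FPKM, 46.3 FPKM and 20.3 FPKM and was still called higher in PB-Lef1 P5. The endoderm markers Ttr and Afp were not listed in any library. The part of endoderm-like cells in the Pygl level was not tested.

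Markers of the tissues after which the phosphorylases are named were near 0 for liver and low for muscle. The 6 hepatocyte markers summed to 0.21 FPKM, 0.26 FPKM and 0.30 FPKM, with Alb not listed in any library. The 6 skeletal muscle markers summed to 1.90 FPKM, 2.24 FPKM and 2.60 FPKM, with Myod1 not listed. Tnnt3, at 0.11 FPKM, 0 and 1.87 FPKM, made up most of the last sum, and Acta1 had the reverse trend, at 1.01 FPKM, 0.69 FPKM and 0.45 FPKM. Of the 5 neural markers, which summed to 39.1 FPKM, 19.2 FPKM and 26.5 FPKM, Neurod1 was called lower in both Lef1 libraries against PB. Tubb3 made up most of the neural sum, at 27.3 FPKM, 13.2 FPKM and 20.6 FPKM. The 8 fibroblast and feeder cell markers summed to 19.5 FPKM, 14.5 FPKM and 9.17 FPKM, with Postn not listed. Most of that sum was Thy1, at 15.7 FPKM, 9.54 FPKM and 7.21 FPKM and called lower in PB-Lef1 P5 than in PB. Twist1 of the same list was at 1.35 FPKM, 4.01 FPKM and 1.45 FPKM. It was called higher in PB-Lef1 P2 than in PB and lower in PB-Lef1 P5 than in PB-Lef1 P2. Thy1, Col1a1, Col1a2, Acta2 and S100a4 of that list were lower in PB-Lef1 P2 than in PB, all but Thy1 under the minimum level. The calls of Twist1 were those of Pygl and also those of the endoderm markers Foxa2, Dab2, Sparc, Cubn and Amn. The part of such cells in the levels of the glycogen genes was not tested.

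The genes most like each called member were sought among 10713 genes by the Euclidean distance between log2(FPKM + 1) values centred on each gene's mean, over 3 libraries. For Pygl the 5 nearest were Adssl1, Dkkl1, Fam114a1, Copz2 and Tns4, at distances of 0.277 to 0.383. Adssl1, a gene of purine nucleotide synthesis, was at 3.28 FPKM, 19.3 FPKM and 3.10 FPKM, and Fam114a1 at 3.14 FPKM, 33.3 FPKM and 4.04 FPKM. For Pygb the 5 nearest were Mfge8, Rtn1, Lrp1, Ccdc57 and Gng12, at 0.0128 to 0.0278. Mfge8, a secreted milk fat globule protein gene, was at 85.4 FPKM, 128 FPKM and 58.6 FPKM. For Pygm they were Ddx4, Cpt1b, Prr15l, Mfsd13a and Pacsin1, at 0.0106 to 0.0483. The germ cell helicase gene Ddx4 was at 4.88 FPKM, 7.11 FPKM and 2.25 FPKM. The distance is not scaled to the size of a gene's differences, so distances are not compared between members. With 3 libraries such likeness is a description of level order and size.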

How the data were processed

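Per the file headers, each library has 1 deposited gene table with Entrez numbers, transcript lengths, expected counts and FPKM. The deposited expected counts are estimated reads and need not be whole. The deposited FPKM values were used as they stand. Bowtie 0.12.2 and mm8 are named, without a role, per the submitters' processing notes. No source used here names the counting program or its strand setting. Tables list genes above 0, so an unlisted gene was taken as 0.

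Ratios were log2((x + 1)/(y + 1)), which understates changes of low genes. Folds are plain FPKM ratios. Exact Poisson 95% intervals of the expected counts were put on the FPKM scale, and those of folds came from the exact conditional interval. The reads carry no molecular identifiers that the sources name, so they may not be independent, and intervals cover counting error only. Symbols came from RefSeq on GRCm38.p6 (17951 of 17997 numbers matched). The members, gene lists and markers were chosen with earlier results of these data known. Genes named outside the members were those called, the highest of each list, those never listed and the 5 nearest in pattern. Pgm1, Phka2, and the markers named were picked after their values were seen. The calling code was checked on simulated counts. Python 3.11.15, pandas 2.3.3 and scipy 1.17.1 were used. The alternatives were 2 other pseudocounts, other minimum levels, fold thresholds and scalings, CPM, 1 length per gene and non-overlapping intervals. No replicate could be left out, since each group has 1 library.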

Additional observations from a re-analysis of the deposited data

Results flagged for a closer look

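Several genes lay on opposite sides of PB in the Lef1 libraries, with both counting intervals of the fold leaving out 1. Each direction rests on 1 library, both comparisons share the empty-vector library, and the difference was not tested. The log2(FPKM + 1) ratio of Pygb was 0.58 in PB-Lef1 P2 and -0.52 in PB-Lef1 P5. That of Pygm was 0.47 in PB-Lef1 P2 and -0.87 in PB-Lef1 P5. Among the wider pathway, Prkaa2 was at 0.51 and -0.54, Hk1 at 0.63 and -0.56, and G6pdx at -0.73 and 0.33, in the same order. Only the 6 members and the other pathway genes called in at least 1 comparison were screened. Pgm1, which was never called, was thus left out, at 0.51 and -0.40. The share of all genes that meet this rule was not counted.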

How the results depend on the processing

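Pygl was the member called higher in PB-Lef1 P2 against PB under all 12 alternatives, and the count of 1 became 2 with a pseudocount of 0.1 FPKM, CPM or a fold threshold of 1.5, where Gys1 joined it. In PB-Lef1 P5 against PB-Lef1 P2, Pygl was called lower under all 12, and the count of 3 became 1 with a pseudocount of 5 FPKM or a fold threshold of 4. It became 2 with a minimum of 10 FPKM (without Pygm) and with median-of-ratios or TMM scaling (without Pygb). In PB-Lef1 P5 against PB the count of 0 became 1 with CPM (Pygm, lower) and with a fold threshold of 1.5 (Gys1, higher). The log2 ratio of Pygm between the Lef1 libraries ran from -1.92 to -0.59. Of 108 recomputed member ratios 96 stayed within the counting interval and 12 moved out of it. All 18 member ratios kept their sign, but only median-of-ratios and TMM scaling put this to a test. A change of pseudocount cannot alter a sign. CPM and 1 length per gene could not either, except for Ugp2, whose length differed slightly between libraries.

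For the other pathway genes, the 6 calls in PB-Lef1 P2 against PB became 2 with a pseudocount of 5 FPKM, 3 with a minimum of 10 FPKM, median-of-ratios or TMM, 11 with CPM, 17 with a fold threshold of 1.5 and 0 with one of 4. The 6 in PB-Lef1 P5 against PB-Lef1 P2 became 1 with a pseudocount of 5 FPKM, 2 with median-of-ratios or TMM, 16 with a fold threshold of 1.5 and 0 with one of 4. The 0 in PB-Lef1 P5 against PB became 2 with a fold threshold of 1.5. The cause was not tested. No paired analysis was possible because each group has 1 library. Depth limits Gbe1, Pygm and Pygl most, with as few as 48, 26 and 50 reads.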
